A study of Mus musculus with 35 samples.

Results

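The genes described here are 10 members of the TGF-β ligand, receptor and latent-binder families, followed in cultured mouse cardiac fibroblasts (CFs) and in mouse hearts. They are the ligand genes Tgfb1, Tgfb2 and Tgfb3, the activin A subunit gene Inhba, the latent binding protein genes Ltbp1, Ltbp2 and Ltbp3, and the receptor genes Tgfbr1, Tgfbr2 and Tgfbr3. They were taken by symbol from the count tables, in which they are 10 of 55487 genes, and all 10 passed the filter on low counts in the CF fits and in the heart fit.

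CFs came from hearts of 8-week-old mice, digested on a Langendorff apparatus, and were passaged. They were transfected with a scrambled siRNA (labelled si-NC, Scrambled) or with either of 2 siRNAs against IAMP, IAMP-siR-1 (siR-1, labelled si-IAMP-1) and IAMP-siR-2 (siR-2, labelled si-IAMP-2). Columns of the untreated and IL-17 tables name these siRNAs by codes only, and the codes were matched to siR-1 and siR-2 through the descriptions of the TGF-β samples. IAMP is a micropeptide encoded by the mouse gene 4930523C07Rik. Of the 27 CF libraries, 9 are from untreated cells, 9 from cells given IL-17 and 9 from cells given TGF-β, and each set of 9 holds 3 libraries per siRNA. The labels give 24 h of siRNA and then 24 h of stimulus for IL-17, and no times or TGF-β dose were found for the other RNA-Seq cells. The 8 hearts, of 8-week-old C57BL/6 mice, are 4 from IAMP-KO animals (KO), which carry a frameshift made with CRISPR, and 4 from heterozygous controls (Het), so the controls carry the altered allele too. Nothing in the labels says whether the 3 libraries of a CF group came from separate mice, and p values over them measure only the spread between these cultures.

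TGF-β is secreted as an inactive complex. Each ligand stays bound to its own propeptide, and a latent TGF-β binding protein (LTBP) ties this complex to the extracellular matrix, from which integrins and proteases release it. Free ligand brings together the type II receptor TGFBR2 and the type I receptor TGFBR1, whose kinase phosphorylates SMAD2 and SMAD3, while the co-receptor TGFBR3 (betaglycan) presents ligand, above all TGF-β2. In the heart this pathway is best known for turning fibroblasts into matrix-producing myofibroblasts. Activin A, a dimer of Inhba products, reaches the same SMADs through activin receptors.

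The target of the siRNAs was lower in all 18 knockdown libraries. 4930523C07Rik stood at 23.5 ± 1.98 CPM (counts scaled to the library total after TMM normalization, mean ± SD, n = 3) in untreated Scrambled CFs, at 3.01 ± 0.494 for siR-1 and at 1.84 ± 0.0635 for siR-2. Log2 fold changes of this gene were −2.97 and −3.69 untreated, −2.85 and −3.44 under IL-17, and smaller in size under TGF-β, at −2.23 and −2.65. Het hearts held 17.05 ± 1.25 CPM and KO hearts 16.1 ± 0.977 CPM (n = 4 each), and counts over a whole gene cannot show a frameshift. Library totals ran from 104139670 to 119232309 estimated counts in CFs and from 23497027 to 23857313 counts in hearts. In CFs a read pair was assumed to add up to 6, the most frequent value among genes seen in 1 library only. On that assumption 18 was taken as the floor of detection in CFs, and the floor in hearts was 3. Floors cover counting error only, while the 95% intervals given below are those of the edgeR fit and include the spread between libraries. All 9 fibroblast markers were present, with a summed level of 12497 to 18879 CPM in CFs. Marker levels are scaled to the plain library total, without TMM. The 7 cardiomyocyte markers summed to 94.6 to 103 CPM in untreated Scrambled CFs, 40.9 to 46.01 under siR-1 and 27.3 to 33.02 under siR-2. Nearly all of that sum was Tnnt2, and Myh6 was at 0 in every untreated Scrambled library. In untreated cells the 5 macrophage markers summed to 17.4 to 18.6 CPM without knockdown. Under siR-1 they summed to 20.9 to 21.2 CPM and under siR-2 to 28.8 to 29.5 CPM. In the same order, Csf1r averaged 9.80, 12.9 and 20.7 CPM and Itgam 0.646, 0.495 and 0.893 CPM. Cd68 averaged 5.79, 5.97 and 5.87 CPM, Adgre1 1.26, 1.003 and 1.12 CPM and Ptprc 0.674, 0.635 and 0.661 CPM. Endothelial and mural markers each summed to at most 93.4 CPM and erythroid markers to at most 1.28 CPM in CF libraries. Under TGF-β the Scrambled libraries had other sums, 43.97 to 52.4 CPM for macrophage, 91.7 to 93.1 for endothelial (48.95 to 54.9 untreated) and 5.76 to 6.49 for cardiomyocyte markers. Among the macrophage markers of these libraries, Cd68 averaged 20.4 CPM, Csf1r 11.7, Adgre1 7.79, Itgam 6.79 and Ptprc 0.982. The part of other cells in the differences was not tested.

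To show the regulatory sequence of the members that TGF-β moved furthest, the windows around the transcription start are printed for the 4 whose level in Scrambled CFs differed by at least 1 on the log2 scale between TGF-β and untreated cells. Each window is the 300 bases from 250 before to 50 after a RefSeq start (GRCm38.p6), read 5′ to 3′ on the gene's strand. Windows were found for 8 of the 10 members, and Tgfb3 and Tgfbr3 had none. Tgfbr1 has a window at each of 2 RefSeq starts, of which the one at the 5′ end of the gene is printed. Capitals mark matches on either strand to the AP-1 site TGANTCA, the SMAD-binding CAGA box CAGAC, the hypoxia response core ACGTG, the GC box GGGCGG, the TATA motif TATAAA and the NF-κB motif, of which the printed windows held none.
Ltbp2, chr12:84876442-84876741, minus strand: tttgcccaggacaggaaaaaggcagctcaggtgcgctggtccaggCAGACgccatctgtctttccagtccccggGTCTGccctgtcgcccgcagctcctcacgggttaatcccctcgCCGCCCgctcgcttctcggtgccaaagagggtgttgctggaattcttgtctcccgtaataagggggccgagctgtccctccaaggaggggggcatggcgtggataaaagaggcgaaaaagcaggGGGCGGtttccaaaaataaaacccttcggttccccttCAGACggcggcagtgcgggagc
Ltbp3, chr19:5740650-5740949, plus strand: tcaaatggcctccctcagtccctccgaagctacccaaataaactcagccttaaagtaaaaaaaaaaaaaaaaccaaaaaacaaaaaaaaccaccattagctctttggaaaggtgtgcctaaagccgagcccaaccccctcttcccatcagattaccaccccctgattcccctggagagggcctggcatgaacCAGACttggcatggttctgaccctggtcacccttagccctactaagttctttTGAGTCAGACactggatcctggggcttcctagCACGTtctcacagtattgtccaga
Tgfbr1, chr4:47352972-47353271, plus strand: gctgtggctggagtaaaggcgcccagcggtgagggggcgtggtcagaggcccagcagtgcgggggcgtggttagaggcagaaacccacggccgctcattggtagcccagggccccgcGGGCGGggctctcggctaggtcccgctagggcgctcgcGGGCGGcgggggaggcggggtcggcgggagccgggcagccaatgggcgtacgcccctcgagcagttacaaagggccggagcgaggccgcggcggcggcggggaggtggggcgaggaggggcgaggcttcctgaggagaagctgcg
Inhba, chr13:16011601-16011900, plus strand: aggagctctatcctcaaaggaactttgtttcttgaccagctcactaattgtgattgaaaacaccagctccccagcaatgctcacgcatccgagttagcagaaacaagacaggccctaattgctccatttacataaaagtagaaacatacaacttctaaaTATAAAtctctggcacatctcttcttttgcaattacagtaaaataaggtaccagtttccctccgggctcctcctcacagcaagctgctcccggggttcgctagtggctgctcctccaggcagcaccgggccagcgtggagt

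The Ltbp2 window held 3 CAGA boxes and 2 GC boxes, the Ltbp3 window 1 AP-1 site overlapping 1 of its 2 CAGA boxes and 1 hypoxia response core, the printed Tgfbr1 window 2 GC boxes and the Inhba window 1 TATA motif. The second Tgfbr1 window (chr4:47385966-47386265, not printed) held 1 CAGA box and 0 GC boxes. CAGA boxes did not follow the direction of the TGF-β response across the other members. Among genes that fell, the Tgfb2 window held 2 and the 2 Ltbp1 windows held 1 and 2. Among genes that rose, the Tgfb1 window held 0 and the Tgfbr2 window 1. Among 32851 mouse windows of the same length, 49.6% held a CAGA box, 35.7% a GC box, 19.6% the hypoxia response core, 13.6% the TATA motif, 7.81% the AP-1 site and 1.63% the NF-κB motif. GC content was 74.7% in the printed Tgfbr1 window, 52.0% in the second, 61.00% in Ltbp2, 48.00% in Ltbp3 and 47.7% in Inhba, against a median of 52.7% over all windows. The shares of all windows are for at least 1 match, and the matches describe letters only.

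Per kilobase of exon, Inhba led the family in untreated Scrambled CFs, at 78.1 ± 9.27 CPM per kb (SD, n = 3). Tgfb3 followed at 38.7 ± 1.54 and Tgfbr2 at 22.7 ± 0.854 CPM per kb. Tgfb1 (17.9 ± 0.217) and Tgfbr1 (17.5 ± 0.838) overlapped in range, as did Tgfbr1 and Ltbp3 (16.02 ± 0.782). Below them came Tgfb2 (13.97 ± 0.788), Ltbp1 (8.96 ± 0.4903), Tgfbr3 (7.37 ± 0.916) and, lowest, Ltbp2 (1.91 ± 0.0939 CPM per kb). Under TGF-β this order changed. Ltbp2 then led at 54.04 ± 2.66 CPM per kb and Ltbp3 came next at 35.6 ± 1.63, while Inhba was the sixth at 20.7 ± 1.34 and Tgfbr1 (4.53 ± 0.282) and Tgfbr3 (4.46 ± 0.327) overlapped at the bottom. Under IL-17 the first 3 places were the same as in untreated cells, with Inhba at 129 ± 4.14 CPM per kb.

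**Figure D1:**
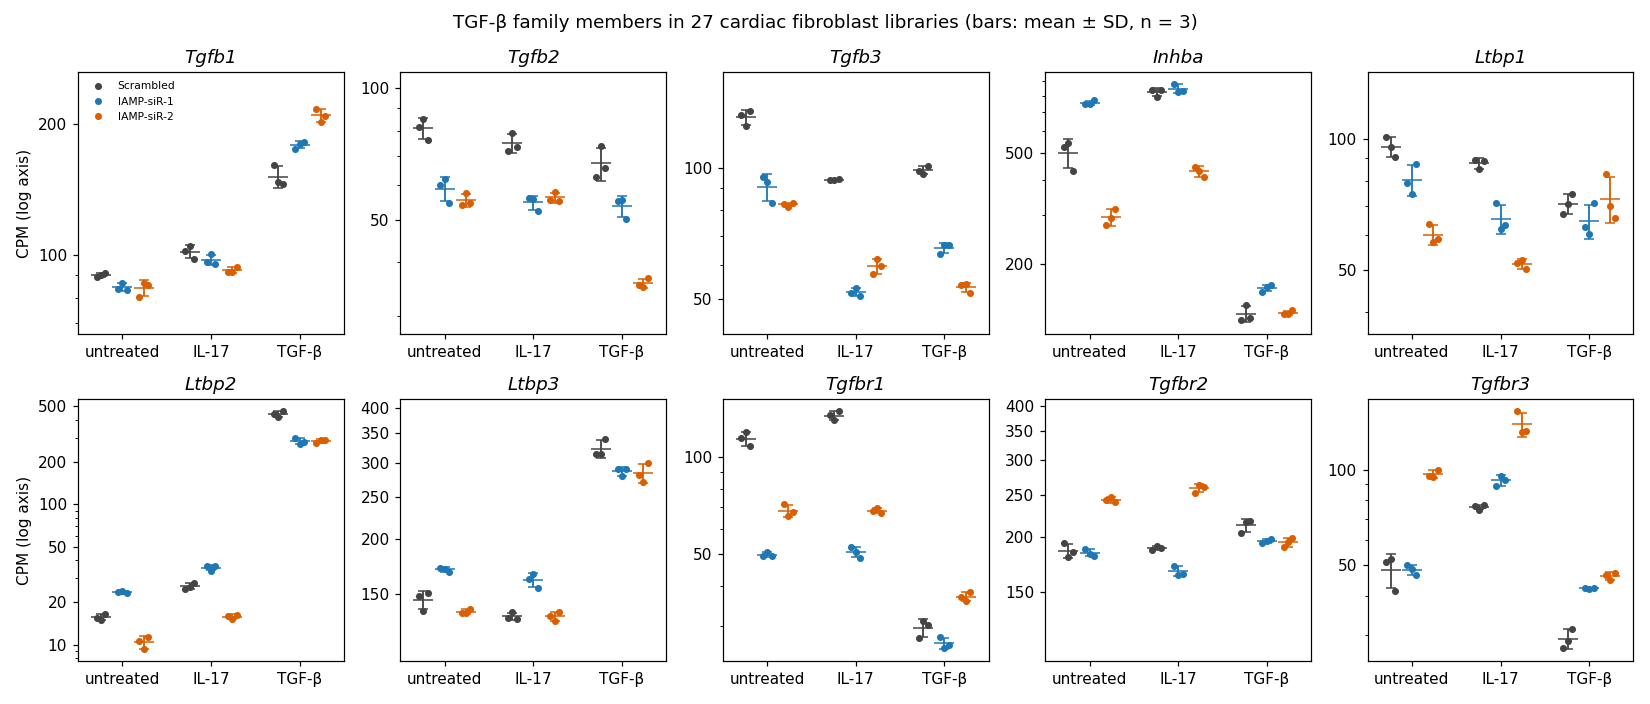
Levels of the 10 members in 27 CF libraries, in CPM on a log axis whose range differs between panels. Points are libraries, and bars are the mean ± SD of 3 libraries of Scrambled (grey), siR-1 (blue) and siR-2 (orange) cells. Ltbp2 sits at 15.05 to 16.5 CPM in untreated and 419 to 462 CPM in TGF-β Scrambled cells, and Tgfbr1 drops from 109 to 119.5 to 27.6 to 31.2 CPM.

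Most of these genes differed between knockdown and Scrambled cells, by modest amounts and in both directions. With both siRNAs and in all 3 conditions, Tgfb2 and Tgfb3 fell. Tgfbr1 fell in all 4 comparisons without TGF-β, and Tgfbr3 rose in 5 of 6 comparisons. Ltbp2 and Inhba were moved in opposite directions by the 2 siRNAs in untreated cells. Whether these changes came from the loss of IAMP or from the siRNAs themselves was not tested. The test was the quasi-likelihood F test of edgeR, and its p values were adjusted after Benjamini and Hochberg over all genes of a fit (edgeR adjusted p), with calls made up to 0.05. A shift in RNA per cell and a shift in the makeup of a culture cannot be told apart in such bulk libraries.

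In untreated CFs, siR-1 raised 3 members and lowered 5, where 19.5% of all 19669 genes tested rose and 20.4% fell. Only 1 of them, Tgfbr1, was also past the study's threshold of a log2 fold change of at least 1, as were 4.76% of all genes. The siR-2 libraries had 2 members higher and 8 lower, against a background of 24.4% and 25.0%, and 0 past the fold threshold, against 10.7%. The median log2 fold change of the 10 members was −0.061 for siR-1 and −0.59 for siR-2, beside −0.016 and −0.020 over all genes. Compared directly, siR-2 cells were above siR-1 cells in 3 members (background 22.7%) and below in 5 (22.8%). The groups did not overlap in 8 members for siR-1, against 49.5% of all genes, and in 9 for siR-2, against 56.9%. Both comparisons share their Scrambled libraries.

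Under IL-17, siR-1 raised 3 members and lowered 5 (background 20.3% and 21.9% of 19906 genes), with 2, Tgfb3 and Tgfbr1, past the 1.5-fold change that the study set for IL-17 cells and that is also used here for TGF-β (13.5% of all genes). With siR-2, 2 members rose and 7 fell (background 25.0% and 25.6%), and 6 were past 1.5-fold (21.7%). The medians were −0.13 and −0.56, beside −0.0026 and −0.017 over all genes. Between the siRNAs, siR-2 was higher in 4 members (23.1%) and lower in 5 (23.1%).

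With TGF-β the counts were the same for both siRNAs, 3 members higher and 5 lower. The shares among 19891 genes tested were 11.7% and 11.4% for siR-1 against 15.1% and 14.8% for siR-2, beside 8 of 10 members called with each siRNA. Past 1.5-fold were 2 members with siR-1 (4.36% of all genes) and 4 with siR-2 (7.51%). The medians were −0.15 and −0.055, beside 0.00030 and 0.013 over all genes. The 2 siRNAs differed in 5 members, with siR-2 higher in 2 (12%) and lower in 3 (12%).

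**Figure D2:**
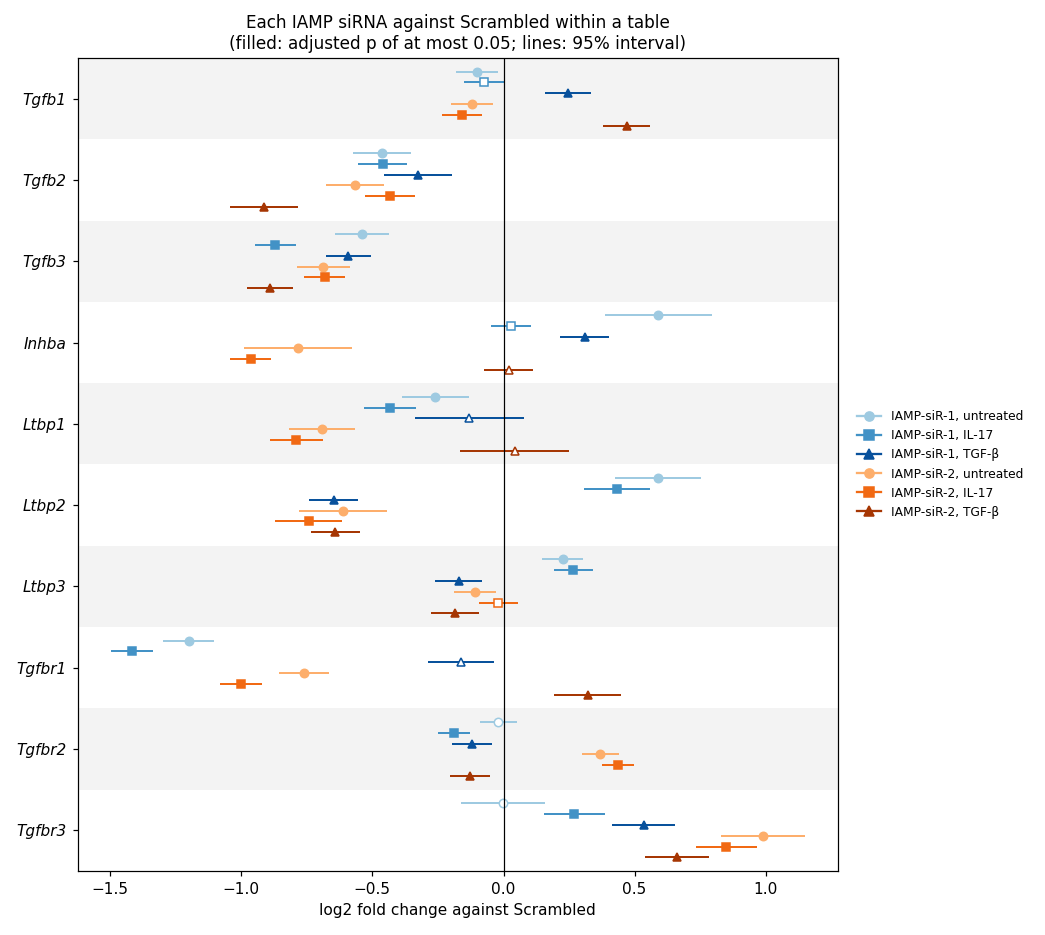
Log2 fold change of each member with siR-1 (blue) and siR-2 (orange) against Scrambled in untreated (circles), IL-17 (squares) and TGF-β (triangles) cells. Lines are 95% intervals of the edgeR fit and filled marks are called genes. All 6 marks of Tgfb2 and of Tgfb3 lie left of 0, from −0.33 to −0.91 and from −0.54 to −0.89.

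The response to the stimuli was read from Scrambled cells across tables, in 1 fit of all 27 CF libraries, so that stimulus and table cannot be told apart. TGF-β changed all 10 members, with 4 higher and 6 lower, and in all 10 the groups did not overlap, as in 62.5% of all genes. Macrophage, endothelial and cardiomyocyte marker sums differed between the same libraries, as given above. Of 22359 genes tested, 28.0% rose and 27.5% fell, and 33.8% were past 1.5-fold, as were 6 members. Ltbp2, Ltbp3, Tgfb1 and Tgfbr2 rose, and Tgfbr1, Inhba, Tgfbr3, Ltbp1, Tgfb3 and Tgfb2 fell. IL-17 raised 5 members and lowered 2 (background 6.13% and 6.10%), with 3 past 1.5-fold (3.07%). Those were Ltbp2, Inhba and Tgfbr3. In these 3 genes the IL-17 rises were similar in size, 0.73, 0.72 and 0.66, whereas under TGF-β Inhba and Tgfbr3 fell.

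**Figure D3:**
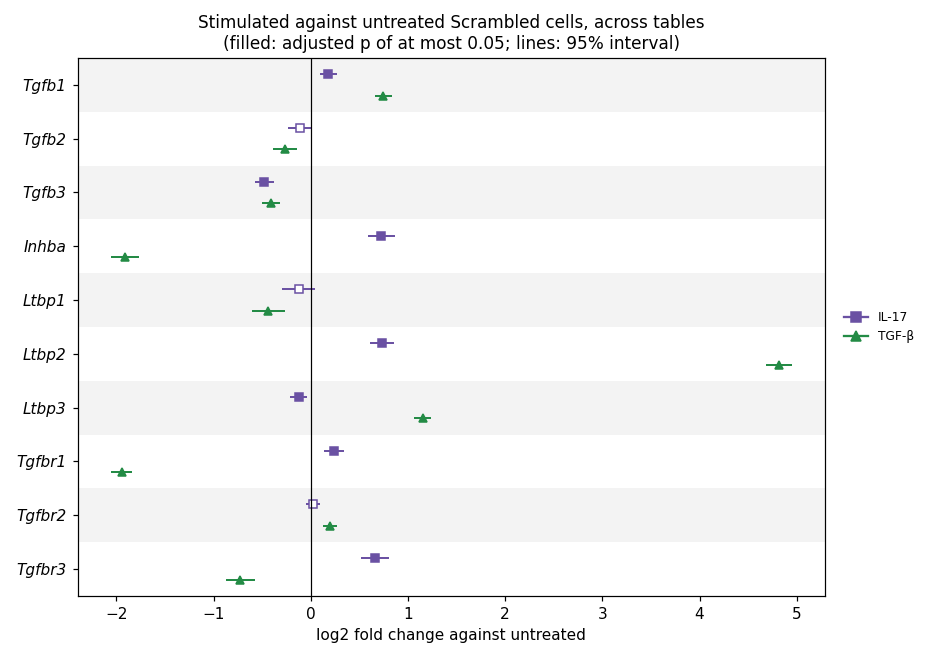
Log2 fold change of each member in Scrambled CFs with IL-17 (purple squares) and TGF-β (green triangles) against untreated Scrambled CFs. Lines are 95% intervals of the edgeR fit and filled marks are called genes. The mark of Ltbp2 under TGF-β, at 4.82, lies far to the right of the others, and Tgfbr1 (−1.95) and Inhba (−1.92) lie farthest to the left.

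Whether the effect of an siRNA differed with a stimulus was tested as an interaction in the same fit. With IL-17 few differences were called, 3 of 10 members for siR-1 (1.73% of all genes) and 1 for siR-2 (1.64%). That of siR-2, Tgfbr1, was lost in 10 of 12 fits without a library, with RLE size factors and with the replicate number as a block, which left 0 members, and among those of siR-1 the call of Tgfbr2 was lost in 10 of 12. With TGF-β the effect differed in 6 members for siR-1 (19.5%) and in 8 for siR-2 (29.5%). The largest of these were in Tgfbr1 and Ltbp2 and are given with the genes below. The knockdown of 4930523C07Rik itself also differed between TGF-β and untreated cells, by 0.73 (SE 0.153, edgeR adjusted p = 5.41e-04) for siR-1 and 1.02 (SE 0.157, edgeR adjusted p = 3.84e-06) for siR-2, and its part in the other differences was not tested.

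Of the ligands, Tgfb3 (ENSMUSG00000021253, chromosome 12, 86056745 to 86079041, minus strand), which encodes TGF-β3, fell in every siRNA comparison. Its levels in untreated CFs were 133, 125 and 135 CPM in the Scrambled libraries, 95.5, 92.95 and 83.1 for siR-1 and 82.97, 81.6 and 83.1 for siR-2. Every knockdown library lay below every Scrambled library. The log2 fold changes were −0.54 (SE 0.0463, edgeR adjusted p = 7.15e-08) for siR-1 and −0.69 (SE 0.0464, edgeR adjusted p = 1.78e-09) for siR-2. In IL-17 cells Tgfb3 stood at 93.8, 94.2 and 94.6 CPM in Scrambled, 51.7, 53.1 and 50.9 for siR-1 and 57.2, 61.9 and 59.5 for siR-2, again with no overlap. The log2 fold change with siR-1 was larger there than in untreated cells, −0.87 (SE 0.0351, edgeR adjusted p = 3.52e-12), and the difference was −0.33 (SE 0.0578, edgeR adjusted p = 7.91e-04). For siR-2 it was −0.68 (SE 0.0349, edgeR adjusted p = 2.80e-11), and the difference from untreated cells, 0.0055 with a 95% interval of −0.11 to 0.12, was not called. Under TGF-β the libraries stood at 98.5, 97.1 and 101 CPM in Scrambled, 63.4, 66.7 and 66.7 for siR-1 and 53.9, 54.1 and 51.7 for siR-2. The falls were −0.59 and −0.89, and siR-2 lay lower than siR-1 by −0.301 (SE 0.0396, edgeR adjusted p = 2.55e-05). Both stimuli also lowered Tgfb3 in Scrambled cells, IL-17 by −0.48 (SE 0.0407, edgeR adjusted p = 8.63e-11) and TGF-β by −0.41 (SE 0.0407, edgeR adjusted p = 2.06e-10). Of its 3383 exon bases, 12.4% are shared with Gm37804 and Gm48008 on the other strand, and the strand setting of the counting is not stated.

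Tgfb2 (ENSMUSG00000039239, chromosome 1, 186622792 to 186705989, minus strand) encodes TGF-β2, the isoform that depends most on the co-receptor, and also fell in every siRNA comparison. Its levels were 81.7, 85.1 and 76.04 CPM in untreated Scrambled CFs, 60.1, 61.8 and 54.7 for siR-1 and 53.9, 57.6 and 54.6 for siR-2. The knockdown libraries lay below all Scrambled libraries, at log2 fold changes of −0.46 (SE 0.0504, edgeR adjusted p = 1.15e-06) and −0.57 (SE 0.0505, edgeR adjusted p = 5.47e-08). The siRNAs did not differ from each other beyond the spread (−0.103, 95% interval −0.21 to 0.0045). Under IL-17 the falls were −0.46 ± 0.0427 (log2, ± SE) and −0.43 ± 0.0426. With TGF-β the Scrambled libraries held 62.5, 73.8 and 65.6 CPM, the siR-1 libraries 55.2, 55.6 and 50.2 and the siR-2 libraries 35.4, 35.01 and 36.7. There siR-2 stood well below siR-1, the log2 difference being −0.59 (SE 0.0599, edgeR adjusted p = 1.60e-06). The effect of siR-2 was larger in size under TGF-β than in untreated cells by −0.37 (SE 0.0789, edgeR adjusted p = 4.22e-04). TGF-β itself lowered Tgfb2 in Scrambled cells by −0.27 (SE 0.0554, edgeR adjusted p = 1.08e-04), and with IL-17 the difference of −0.11 (95% interval −0.23 to −0.00046) was not called.

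Tgfb1 (ENSMUSG00000002603, chromosome 7, 25687002 to 25705077, plus strand), the gene of the isoform most studied in cardiac fibrosis, changed little with knockdown until TGF-β was present. Untreated CFs held 90.2 ± 1.096 CPM in Scrambled, 84.5 ± 1.82 for siR-1 and 84.2 ± 3.35 for siR-2 (SD, n = 3 each). These small falls were called, at −0.100 (SE 0.0358, edgeR adjusted p = 0.0343) and −0.12 (SE 0.0358, edgeR adjusted p = 0.0104), but the call with siR-1 was lost without Scrambled library 2 or 3 or siR-1 library 1 or 3 (−0.12 to −0.090 over the libraries left out), and that with siR-2 without siR-2 library 1 (−0.13 to −0.092). TGF-β raised Tgfb1 in Scrambled cells to 161, 147 and 145 CPM, by 0.75 (SE 0.0378, edgeR adjusted p = 1.03e-17). In those cells both siRNAs raised it further, to 176, 180.1 and 182 CPM for siR-1 and 216, 203 and 209 CPM for siR-2. The 3 groups under TGF-β did not overlap. The rises were 0.25 (SE 0.0405, edgeR adjusted p = 2.19e-04) for siR-1 and 0.47 (SE 0.0405, edgeR adjusted p = 1.09e-07) for siR-2. Against untreated cells the effect thus changed direction, by 0.34 (SE 0.0532, edgeR adjusted p = 1.08e-05) and 0.57 (SE 0.0532, edgeR adjusted p = 3.28e-10). IL-17 raised Tgfb1 by 0.18 (SE 0.0377, edgeR adjusted p = 9.83e-04) in Scrambled cells, and siR-2 lowered it there by −0.16 (SE 0.0342, edgeR adjusted p = 7.26e-04), while the siR-1 value of −0.073 did not pass.

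Inhba (ENSMUSG00000041324, chromosome 13, 16011851 to 16031621, plus strand), the activin A subunit gene, responded in opposite ways to the 2 siRNAs. In untreated CFs it stood at 524, 542 and 432 CPM in Scrambled, 746, 748 and 771 for siR-1 and 275, 291 and 315 for siR-2. All siR-1 libraries lay above and all siR-2 libraries below the Scrambled ones, of which library 3 was the lowest. The log2 fold changes were 0.59 (SE 0.0861, edgeR adjusted p = 7.98e-04) and −0.78 (SE 0.0866, edgeR adjusted p = 1.01e-04), and the siRNAs differed by −1.37 (SE 0.0876, edgeR adjusted p = 3.56e-06). With IL-17 the levels were 839, 794 and 841 CPM in Scrambled, 883, 825 and 833 for siR-1 and 445, 432 and 409 for siR-2. Here the siR-1 and Scrambled ranges overlapped (0.028, 95% interval −0.046 to 0.102), and siR-2 lowered Inhba by −0.96 (SE 0.0352, edgeR adjusted p = 3.40e-13). The siR-1 effect differed from that in untreated cells by −0.56 (SE 0.08800, edgeR adjusted p = 5.44e-04). TGF-β lowered Inhba to 126, 142 and 129 CPM in Scrambled cells, a log2 change of −1.92 (SE 0.0647, edgeR adjusted p = 7.56e-18), close to that of Tgfbr1. In TGF-β cells siR-1 raised it, at 159, 165 and 167 CPM (0.31 (SE 0.0421, edgeR adjusted p = 3.30e-05)), and siR-2 left it at 133, 133 and 136 CPM, a difference of 0.020 from Scrambled with a 95% interval of −0.070 to 0.11. The interaction with TGF-β was −0.29 (SE 0.0886, edgeR adjusted p = 0.0226) for siR-1 and 0.78 (SE 0.0889, edgeR adjusted p = 2.29e-07) for siR-2. For siR-1 this call was lost without untreated siR-1 library 3, TGF-β Scrambled library 2 or TGF-β siR-1 library 1 or 2 (−0.35 to −0.19).

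Among the latent binding proteins, Ltbp2 (ENSMUSG00000002020, chromosome 12, 84783212 to 84876532, minus strand) had the largest response of all members. Its product is a matrix protein of elastic microfibrils and, unlike LTBP1 and LTBP3, is not known to bind latent TGF-β. Scrambled libraries held 15.4, 15.05 and 16.5 CPM untreated, 24.9, 25.7 and 27.5 with IL-17 and 445, 419 and 462 with TGF-β. TGF-β thus raised it 28.2-fold, a log2 change of 4.82 (SE 0.0599, edgeR adjusted p = 5.88e-32), and IL-17 raised it by 0.73 (SE 0.0546, edgeR adjusted p = 8.19e-12). Knockdown pulled it in opposite directions in untreated cells, to 23.6, 24.3 and 23.2 CPM for siR-1 and 10.7, 9.22 and 11.2 CPM for siR-2. No range overlapped, and the log2 fold changes were 0.59 (SE 0.0754, edgeR adjusted p = 7.30e-06) and −0.61 (SE 0.0766, edgeR adjusted p = 3.34e-06). The same split was seen under IL-17, with 36.1, 33.6 and 36.5 CPM for siR-1 and 15.9, 15.1 and 16.4 CPM for siR-2, at 0.43 and −0.74. With TGF-β both siRNAs lowered Ltbp2, to 297, 271 and 278 and 274, 287 and 289 CPM. The falls were −0.65 (SE 0.04202, edgeR adjusted p = 6.26e-09) and −0.64 (SE 0.04202, edgeR adjusted p = 3.66e-09), and the difference between the siRNAs was not called (0.0065, 95% interval −0.082 to 0.095). For siR-1 the change of effect with TGF-β was −1.24 (SE 0.0744, edgeR adjusted p = 1.18e-13), and for siR-2 it was −0.049 (95% interval −0.204 to 0.11), not called. Of its exon bases 9.34% are shared with D030025P21Rik on the other strand.

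Ltbp3 (ENSMUSG00000024940, chromosome 19, 5740904 to 5758532, plus strand), whose product binds latent TGF-β, rose with TGF-β from 148, 137 and 151 to 315, 314 and 339.9 CPM in Scrambled cells, by 1.15 (SE 0.0384, edgeR adjusted p = 1.98e-22). Knockdown moved it much less. In untreated cells siR-1 raised it to 171 ± 2.01 CPM, 0.22 (SE 0.0357, edgeR adjusted p = 7.11e-05), and siR-2 lowered it to 137 ± 1.78 CPM, −0.11 (SE 0.0357, edgeR adjusted p = 0.0179). The siR-2 range overlapped the Scrambled range, and that call was lost without Scrambled library 1 or 3 or siR-2 library 1 or 2 (−0.15 to −0.083). Under TGF-β both lowered it, by −0.17 (SE 0.0413, edgeR adjusted p = 0.00542) and −0.19 (SE 0.0413, edgeR adjusted p = 0.00218). For siR-1 this change of direction was called (−0.403 (SE 0.0536, edgeR adjusted p = 7.16e-07)).

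Ltbp1 (ENSMUSG00000001870, chromosome 17, 75005568 to 75392512, plus strand), whose product ties latent TGF-β to the matrix, fell with both siRNAs in untreated cells, from 101, 95.8 and 90.5 CPM to 78.99, 74.5 and 87.5 for siR-1 and 63.7, 57.7 and 58.8 for siR-2. All 3 ranges were separate, at −0.26 (SE 0.0572, edgeR adjusted p = 0.00171) and −0.69 (SE 0.0577, edgeR adjusted p = 4.85e-08). Under IL-17 the falls were −0.43 (SE 0.0451, edgeR adjusted p = 4.90e-07) and −0.79 (SE 0.0454, edgeR adjusted p = 1.32e-10). Their differences from the untreated falls, −0.17 (95% interval −0.396 to 0.057) and −0.096 (−0.32 to 0.13), were not called. With TGF-β the siR-1 and siR-2 ranges, 60.3 to 71.1 and 65.8 to 82.7 CPM, both overlapped the Scrambled range of 67.00 to 74.7 CPM. The 95% intervals were −0.33 to 0.073 and −0.16 to 0.25. The effect of siR-2 changed with TGF-β by 0.71 (SE 0.1096, edgeR adjusted p = 1.66e-05). TGF-β lowered Ltbp1 in Scrambled cells by −0.44 (SE 0.0773, edgeR adjusted p = 3.40e-05).

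Of the receptors, Tgfbr1 (ENSMUSG00000007613, chromosome 4, 47353222 to 47414931, plus strand), the type I receptor kinase through which TGF-β reaches SMAD2 and SMAD3, fell with both siRNAs in untreated and IL-17 cells. Untreated Scrambled libraries held 115, 119.5 and 109 CPM, siR-1 libraries 49.5, 50.8 and 49.4 and siR-2 libraries 71.7, 65.8 and 67.6. The 3 groups were separate, with siR-1 the lowest. The falls were −1.2 (SE 0.0438, edgeR adjusted p = 2.28e-12) for siR-1 and −0.76 (SE 0.0432, edgeR adjusted p = 1.87e-10) for siR-2. IL-17 cells showed the same order, 135, 130.1 and 139 CPM in Scrambled, 52.8, 51.02 and 48.9 for siR-1 and 68.3, 69.6 and 67.1 for siR-2. There the falls were −1.42 (SE 0.0363, edgeR adjusted p = 1.46e-14) and −1.0 (SE 0.0357, edgeR adjusted p = 2.58e-13), while IL-17 itself raised the Scrambled level by 0.24 (SE 0.0447, edgeR adjusted p = 1.98e-04). The siR-2 effect was larger in size under IL-17 than untreated by −0.24 (SE 0.0636, edgeR adjusted p = 0.0463), and 10 of the 12 fits with a library removed lost this call, all but those without untreated Scrambled library 2 or untreated siR-2 library 2 (−0.27 to −0.200).

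TGF-β lowered Tgfbr1 strongly, to 27.6, 31.2 and 30.2 CPM in Scrambled cells, by −1.95 (SE 0.04698, edgeR adjusted p = 4.70e-26). On that lower level the siRNA effects were different. With siR-1 the libraries held 27.7, 25.6 and 26.1 CPM, overlapping Scrambled, and the value of −0.16 was not called (edgeR adjusted p = 0.0545, 95% interval −0.29 to −0.039), though it was called without TGF-β Scrambled library 1 or siR-1 library 1 and by DESeq2 (adjusted p = 0.0372). With siR-2 they held 36.9, 35.9 and 38.1 CPM, above every Scrambled library, at 0.32 (SE 0.0581, edgeR adjusted p = 3.74e-04). Against untreated cells the effect on Tgfbr1 changed by 1.03 (SE 0.06503, edgeR adjusted p = 1.37e-13) for siR-1 and 1.06 (SE 0.0647, edgeR adjusted p = 1.82e-14) for siR-2.

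Tgfbr3 (ENSMUSG00000029287, chromosome 5, 107106570 to 107289629, minus strand) encodes betaglycan. Its level in untreated CFs was 50.9, 52.4 and 41.4 CPM in Scrambled and 50.1, 48.4 and 46.5 with siR-1, overlapping (−0.0027, 95% interval −0.16 to 0.15), and 95.8, 95.1 and 100.1 with siR-2. Only siR-2 raised it there, by 0.99 (SE 0.0714, edgeR adjusted p = 6.52e-08), and the siRNAs differed by 0.99 (SE 0.0715, edgeR adjusted p = 8.57e-08). With IL-17 the groups separated fully, at 76.6, 74.8 and 77.3 CPM in Scrambled, 88.9, 95.8 and 92.8 for siR-1 and 153, 132 and 133 for siR-2. The rises were 0.27 (SE 0.0527, edgeR adjusted p = 6.76e-04) and 0.85 (SE 0.0527, edgeR adjusted p = 2.52e-09). TGF-β lowered the Scrambled level to 27.2, 28.8 and 31.5 CPM (−0.72 (SE 0.0656, edgeR adjusted p = 1.34e-10)), whereas IL-17 had raised it (0.66 (SE 0.0644, edgeR adjusted p = 8.38e-09)). Under TGF-β both siRNAs raised Tgfbr3, to 42.2, 42.1 and 42.4 CPM with siR-1 (0.53 (SE 0.0551, edgeR adjusted p = 1.51e-06)) and 46.5, 44.7 and 47.2 CPM with siR-2 (0.66 (SE 0.0551, edgeR adjusted p = 7.33e-08)). The siR-1 effect was larger there than in untreated cells by 0.53 (SE 0.0921, edgeR adjusted p = 8.10e-05), and the siR-2 effect differed by −0.35 (SE 0.0917, edgeR adjusted p = 0.00412). Gm43422, on the same strand, shares 4.54% of its exon bases.

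Tgfbr2 (ENSMUSG00000032440, chromosome 9, 116084293 to 116175360, minus strand), the type II receptor that binds the ligand first, stood at 186 ± 6.99 CPM in untreated Scrambled CFs, 184 ± 3.62 for siR-1 and 244 ± 3.54 for siR-2 (SD, n = 3). The siR-1 value of −0.021 (95% interval −0.088 to 0.046) did not pass, and siR-2 raised it by 0.37 (SE 0.0315, edgeR adjusted p = 3.18e-08). Under IL-17 the siRNAs moved it in opposite directions, siR-1 to 172, 164 and 165 CPM and siR-2 to 253, 264 and 261 CPM from 187, 191 and 189 CPM in Scrambled. The values were −0.19 (SE 0.0273, edgeR adjusted p = 2.17e-05) and 0.44 (SE 0.0272, edgeR adjusted p = 3.85e-10). The siR-1 effect differed from that in untreated cells by −0.16 (SE 0.0441, edgeR adjusted p = 0.0474), a call kept in 2 of the 12 fits without a library (−0.196 to −0.14). With TGF-β both lowered it slightly, by −0.12 and −0.13, and the siR-1 call was lost without TGF-β Scrambled library 2 or 3 or siR-1 library 1 or 2 (−0.14 to −0.102). For siR-2 the effect differed between TGF-β and untreated cells by −0.52 (SE 0.0441, edgeR adjusted p = 3.81e-11). TGF-β raised the Scrambled level by 0.19 (SE 0.0312, edgeR adjusted p = 2.10e-06).

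In untreated cells the receptor genes were thus moved apart. With siR-2, Tgfbr1 fell while Tgfbr2 and Tgfbr3 rose, and with siR-1 only Tgfbr1 passed the test. The ratio of the levels was not tested.

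Of 20 genes for the latent complex and its activation, siR-1 raised 10 and lowered 5 in untreated CFs, and siR-2 raised 9 and lowered 10, where 19.5% of all genes rose and 20.4% fell for siR-1 (for siR-2 24.4% and 25.0%). The counts were 10 and 4 for siR-1 and 8 and 10 for siR-2 under IL-17, and 7 and 2, then 6 and 4, under TGF-β. All genes gave 20.3% and 21.9%, then 25.0% and 25.6%, under IL-17, and 11.7% and 11.4%, then 15.1% and 14.8%, under TGF-β. The median log2 fold changes of the 20 genes over the 6 comparisons lay between −0.14 and 0.11. Here and in the lists below, the largest rise or fall is that among called genes with at least 1 CPM on average over the 9 libraries of a condition. A gene could thus pass while 1 of the compared groups averaged below 1 CPM. This was so for Itgb6, Fbn2, Grem1 under TGF-β and Cnn1 without TGF-β. The largest rise with siR-1 was that of Itgb1, the integrin β1 chain, without TGF-β (mean ± SD in Scrambled and with the siRNA and log2 fold change 1756 ± 32.2 to 2669 ± 25.8 CPM, 0.598 untreated, and 1674 ± 45.7 to 2549 ± 51.01 CPM, 0.597 with IL-17). With siR-2 it was that of Itgb6, a chain of a TGF-β-activating integrin, from a low level (0.979 ± 0.175 to 3.68 ± 0.287 CPM, 1.89 untreated, 0.871 ± 0.435 to 3.37 ± 0.384 CPM, 1.93 with IL-17). Fbn2, the microfibril protein fibrillin-2, had the largest fall in all 4 of these comparisons (2.54 ± 0.216 to 0.931 ± 0.118 CPM, −1.45 and 2.54 ± 0.216 to 0.927 ± 0.343 CPM, −1.47 untreated, 3.43 ± 0.591 to 0.939 ± 0.191 CPM, −1.88 and 3.43 ± 0.591 to 0.892 ± 0.3300 CPM, −1.96 with IL-17). Under TGF-β Itgb8, a chain of another activating integrin, rose most with both siRNAs (9.57 ± 0.6700 to 12.1 ± 0.623 CPM, 0.34 and 9.57 ± 0.6700 to 15.3 ± 0.3300 CPM, 0.68), and Ltbp4, the fourth latent binding protein, fell most (55.9 ± 1.44 to 40.9 ± 0.814 CPM, −0.45 and 55.9 ± 1.44 to 36.7 ± 1.74 CPM, −0.61). TGF-β in Scrambled cells raised 7 and lowered 11 of the 20 (all genes 28.0% and 27.5%), and IL-17 raised 4 and lowered 2 (all genes 6.13% and 6.10%).

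Of 29 genes for other receptors, inhibitors and signal transducers, siR-1 raised 13 and lowered 4 in untreated cells (all genes 19.5% and 20.4%), siR-2 11 and 12 (all genes 24.4% and 25.0%). Under IL-17 the counts were 13 and 6 for siR-1 and 9 and 12 for siR-2, and under TGF-β 8 and 6, then 6 and 9, beside the shares of all genes given with the latent complex list. Smad5, a transducer of BMP signals, had the largest fall in the 4 comparisons without TGF-β, from 72.9 ± 2.09 to 45.98 ± 1.796 CPM, −0.67 for siR-1 and from 72.9 ± 2.09 to 26.2 ± 0.514 CPM, −1.5 for siR-2 in untreated cells, and by −0.76 and −1.60 with IL-17. Inhbb, the activin B subunit, rose most with siR-1 in untreated cells (38.5 ± 0.201 to 114 ± 3.04 CPM, 1.55) and fell most with siR-2 under TGF-β (22.1 ± 1.48 to 11.4 ± 1.17 CPM, −0.95). The other largest rises were in Acvr1b, a type I activin receptor, with siR-2 untreated (28.4 ± 1.49 to 51.1 ± 1.45 CPM, 0.83), in the BMP antagonists Nog with siR-1 (1.04 ± 0.177 to 2.37 ± 0.462 CPM, 1.17) and Grem1 with siR-2 (9.22 ± 0.884 to 16.7 ± 1.93 CPM, 0.84) under IL-17, and, under TGF-β, in Grem1 with siR-1 (0.999 ± 0.293 to 1.97 ± 0.312 CPM, 0.98) and in the ubiquitin ligase Smurf2 with siR-2 (159 ± 6.36 to 258 ± 1.74 CPM, 0.702). Inha, the inhibin α subunit, fell most with siR-1 under TGF-β (3.69 ± 0.509 to 2.48 ± 0.489 CPM, −0.58). TGF-β in Scrambled cells raised 8 and lowered 16 (all genes 28.0% and 27.5%), and IL-17 raised 8 and lowered 8 (all genes 6.13% and 6.10%).

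Of 14 textbook TGF-β response genes, siR-1 raised 10 and lowered 2 in untreated cells, while siR-2 raised 4 and lowered 10 (all genes 19.5% and 20.4% for siR-1, 24.4% and 25.0% for siR-2). Fn1 (0.48 with siR-1 and −1.31 with siR-2 in untreated cells) is also in the latent complex list, so it is counted in both. Direct comparison of siR-2 with siR-1 gave 4 higher and 10 lower (all genes 22.7% and 22.8%). Under IL-17 the counts were 10 and 2 for siR-1 and 3 and 10 for siR-2 (all genes 20.3% and 21.9%, then 25.0% and 25.6%). Under TGF-β they were 3 and 5, then 5 and 5 (all genes 11.7% and 11.4%, then 15.1% and 14.8%). The stimulus itself raised 9 of the 14 and lowered 5 in Scrambled cells (all genes 28.0% and 27.5%). The median of the list was 0.67 for the stimulus, beside 0.019 over all genes. Of the genes named below, Col3a1 averaged 2928 ± 116 CPM in untreated and 2459 ± 139 CPM in TGF-β Scrambled cells. Cnn1 went the other way, from 1.93 ± 0.365 to 13.9 ± 1.95 CPM. A rise in this list is thus not by itself a move in the direction of the TGF-β response. With siR-1 the largest rise without TGF-β was that of the collagen crosslinker Lox (1246 ± 54.5 to 2684 ± 27.7 CPM, 1.1 untreated, 1212 ± 46.2 to 2789 ± 31.97 CPM, 1.19 with IL-17), and the largest fall that of the cytokine Il11 (1.803 ± 0.229 to 1.09 ± 0.205 CPM, −0.73 and 3.82 ± 0.872 to 1.79 ± 0.161 CPM, −1.1). With siR-2 the collagen gene Col3a1 rose most (2928 ± 116 to 8128 ± 11.6 CPM, 1.45 and 2794 ± 32.2 to 8356 ± 247 CPM, 1.56) and the smooth-muscle calponin gene Cnn1 fell most (1.93 ± 0.365 to 0.639 ± 0.173 CPM, −1.61 and 1.26 ± 0.1603 to 0.465 ± 0.211 CPM, −1.46). Under TGF-β Cnn1 fell most with both (13.9 ± 1.95 to 6.76 ± 0.358 CPM, −1.03 and 13.9 ± 1.95 to 3.51 ± 0.3902 CPM, −1.98), and Col3a1 with siR-1 (2459 ± 139 to 3869 ± 27.1 CPM, 0.65) and the protease inhibitor Timp1 with siR-2 (1284 ± 35.1 to 1897 ± 46.2 CPM, 0.56) rose most.

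For each member the genes with the most similar pattern were found by Pearson's r of log2(CPM + 1) over the 27 CF libraries, among 10700 genes with at least 5 CPM on average. The points share 3 tables and 9 groups, so these values describe the pattern and carry no test. The closest were Stk17b (r = 0.980) and Ifi206 (0.976) for Tgfb1, Adgrg6 (r = 0.906) and Olfml1 (0.894) for Tgfb2 and Fzd6 (r = 0.942) and Wtip (0.935) for Tgfb3. For Inhba they were Atp13a3 (r = 0.993) and Foxn2 (0.986). The latent binding proteins were closest to Fnbp1 (r = 0.924) and Tnks (0.920) for Ltbp1, Bmp1 (r = 0.993) and Sod3 (0.990) for Ltbp2 and Mfap4 (r = 0.992) and Itga11 (0.991) for Ltbp3. For the receptors they were Tnpo1 (r = 0.989) and Zfp518b (0.977) for Tgfbr1, Flot2 (r = 0.937) and Snx17 (0.935) for Tgfbr2 and Calcrl (r = 0.973) and Rrs1 (0.973) for Tgfbr3. Bmp1, a protease that cleaves procollagen and LTBP1, is also among the 20 genes of the latent complex list.

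In whole hearts no member passed the test between KO and Het. edgeR called 0 of the 10 members and 0% of 16675 genes (601 genes had an unadjusted p below 0.05), DESeq2 also called 0 members, and in all 10 the ranges of the 4 KO and 4 Het hearts overlapped, whereas they were separate in 2.37% of all genes. The family was ordered differently from cultured CFs. Tgfb1 led at 9.06 ± 0.503 CPM per kb in Het hearts, Tgfbr2, Tgfb3, Ltbp3 and Tgfbr3 followed with overlapping neighbours at 4.90 to 5.14, and Ltbp2 (0.566 ± 0.265) and Inhba (0.375 ± 0.138 CPM per kb) were lowest and overlapped. The 9 fibroblast markers summed to only 651 to 1062 CPM in these hearts and the cardiomyocyte markers to 40795 to 46338 CPM.

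Tgfbr3 was the sole member with an unadjusted p below 0.05 in hearts. It stood at 36.9, 30.1, 32.2 and 29.1 CPM in Het and 37.2, 39.5, 44.3 and 36.3 CPM in KO hearts, of which the lowest KO heart lay below the highest Het heart. The log2 difference was 0.29 (SE 0.0862, unadjusted p = 0.0063 and adjusted p = 1.00 by edgeR, 95% interval 0.103 to 0.48). Tgfbr1, at 9.25, 9.49, 11.6 and 10.4 CPM in Het and 10.7, 11.2, 10.9 and 13.03 in KO, differed by 0.17 (95% interval −0.039 to 0.38). The intervals for Tgfb1 (−0.21 to 0.052), Tgfb2 (−0.39 to 0.25) and Tgfb3 (−0.27 to 0.16) all held 0. They were widest for the low genes Ltbp2 (−0.64 to 0.66) and Inhba (−0.496 to 0.701), which had 2.79 to 7.73 and 1.34 to 3.33 CPM in the Het hearts. Het controls carry the altered allele, and a difference from wild-type hearts was not analysed here.

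**Figure D4:**
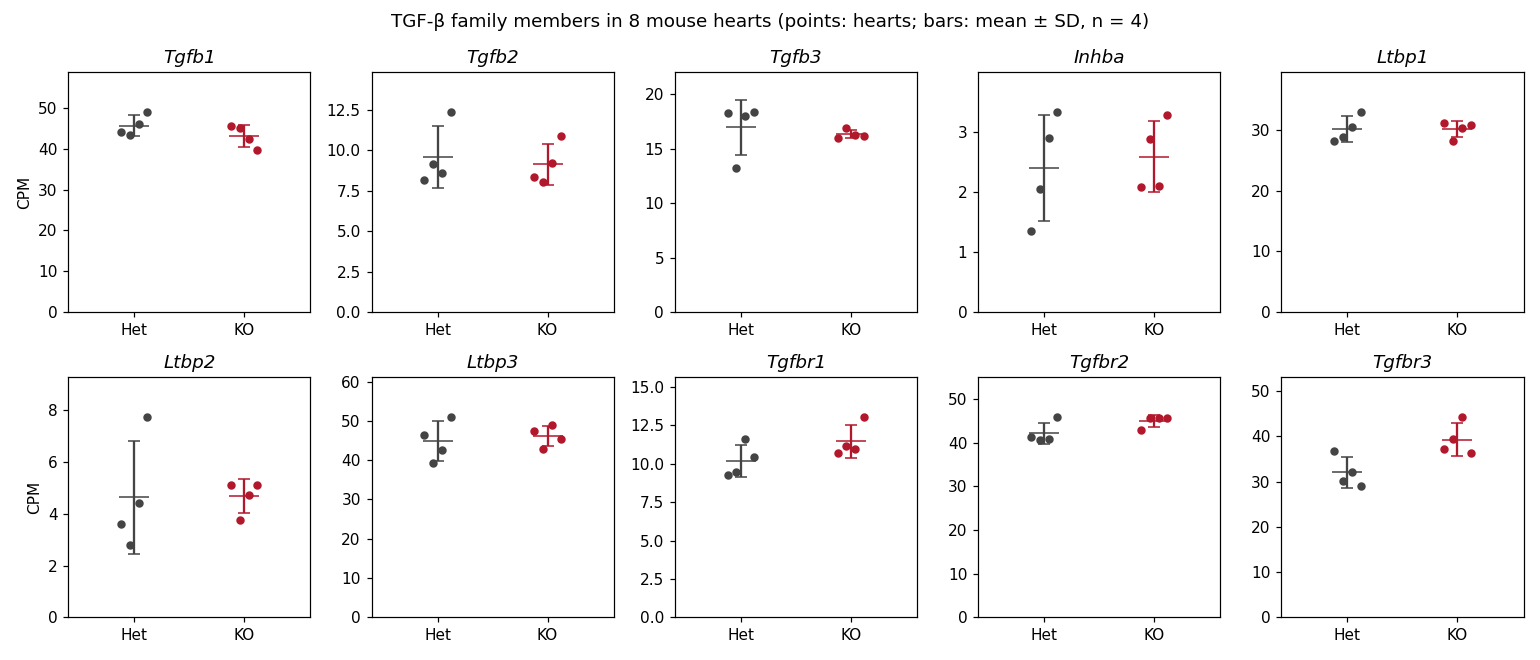
Levels of the 10 members in 4 Het (grey) and 4 KO (red) hearts, in CPM on axes that start at 0 and differ between panels. Points are hearts and bars are the mean ± SD. The Het and KO points overlap in every panel, and are nearest to separate for Tgfbr3, at 29.1 to 36.9 and 36.3 to 44.3 CPM.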

How the data were processed

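RNA-Seq of 27 CF libraries and 8 hearts was re-analysed from 4 tables. The authors trimmed reads with Cutadapt 3.7, checked them with FastQC 0.11.9, aligned them to GRCm38 with HISAT2 2.2.1 and quantified genes with StringTie 2.1.4. They deposited whole numbers without normalization, read here as estimated counts from coverage in CFs and as counts in hearts. The strand setting and the annotation release are not given in the sources used here. Gene positions are from GENCODE vM21.

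Each table was fitted with edgeR 4.0.16 in R 4.3.3 (TMM, filterByExpr, robust quasi-likelihood, Benjamini-Hochberg over all genes), and stimuli and interactions in 1 fit of the 27 CF libraries. CPM (estimated counts or counts divided by the TMM-scaled library total, per 1000000) are from the latter fit for CFs and from the heart fit for hearts, and per-kb values use merged exons. Cell type marker levels instead use the plain library total over all genes, without the filter or TMM. SE is the log2 fold change over the square root of F. The pathway lists, markers, all 10 members, the called gene with the largest rise and fall per list (at least 1 CPM) and the 2 most similar genes per member were named by rule. Members and lists were chosen with earlier results of these data known. Alternatives were RLE size factors, no filter, at least 10 counts in every library, DESeq2 1.42.0, a replicate block, counts divided by 6, fewer groups or tables, and leaving out each library. The scripts were tested on simulated data.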

Additional observations from a re-analysis of the deposited data

Results flagged for a closer look

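For Tgfbr1 the effect of each siRNA differed between TGF-β and untreated cells by more than 1 on the log2 scale, by 1.03 for siR-1 and 1.06 for siR-2 (edgeR adjusted p = 1.37e-13 and 1.82e-14). For Ltbp2 the siR-1 effect differed by −1.24 (edgeR adjusted p = 1.18e-13), since siR-1 raised it in all 3 untreated libraries and lowered it in all 3 TGF-β libraries. All 3 differences are between tables, so stimulus and table cannot be told apart.

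In hearts, the lowest Het heart for Tgfb3, at 13.2 CPM, lay far from the other 3, which held 18.03 to 18.4 CPM. For Tgfbr2 the highest Het heart, at 45.8 CPM, lay apart from the other 3 (40.5 to 41.2 CPM), and the lowest KO heart, at 42.9 CPM, lay apart from the other KO hearts (45.5 to 45.7 CPM). Chance flags about 1 in 20 such groups, and 20 were examined.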

How the results depend on the processing

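The number of members called was 0 for the interaction of siR-2 with IL-17 under RLE size factors and with the replicate block, in place of 1, and ran from 0 to 1 when a library was left out. The other counts of members called stayed within 1.5 times their value. The cause of these changes was not tested. Direction changed in no called gene under the alternatives that kept all libraries. Among uncalled values, Tgfbr3 with siR-1 in untreated cells became 0.0063 without a filter, 0.0059 in a fit of the 2 groups alone and 0.00043 with the replicate block, and Tgfb3 in the interaction of siR-2 with IL-17 became −0.0038 without a filter. Left-out libraries turned only uncalled values. These ran, with siR-1 untreated, from −0.046 to 0.0056 for Tgfbr2 and −0.102 to 0.060 for Tgfbr3, and for siR-2 against siR-1 untreated from −0.035 to 0.0094 for Tgfb1. With siR-1 under IL-17 Inhba ran from −0.0040 to 0.045, and for siR-2 against siR-1 Tgfb2 from −0.0061 to 0.042. With siR-2 under TGF-β Ltbp1 ran from −0.060 to 0.11 and Inhba from −0.013 to 0.075, and for siR-2 against siR-1 Tgfbr2 from −0.027 to 0.0085, Ltbp2 from −0.020 to 0.044 and Ltbp3 from −0.055 to 0.018. Tgfbr2 with IL-17 in Scrambled cells ran from −0.0044 to 0.048. In the interactions, Tgfb2 for siR-1 with IL-17 ran from −0.044 to 0.047, Tgfb3 for siR-2 with IL-17 from −0.023 to 0.041 and Ltbp2 for siR-2 with TGF-β from −0.13 to 0.042. In hearts Tgfb2 ran from −0.17 to 0.078, Ltbp1 from −0.030 to 0.046, Ltbp2 from −0.17 to 0.38, Ltbp3 from −0.015 to 0.11 and Inhba from −0.096 to 0.303.

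Calls lost beyond those named with the genes were Tgfb3 for siR-2 against siR-1 untreated (without siR-1 library 1 or 2 or siR-2 library 2, −0.21 to −0.11), Tgfb1 for the same pair under IL-17 (without siR-1 library 2 or siR-2 library 1 or 2, −0.11 to −0.062), Ltbp3 with IL-17 in Scrambled cells (without untreated or IL-17 library 1 or 3, −0.17 to −0.096) and Tgfbr2 for siR-1 with IL-17 (without any one library other than untreated Scrambled library 1 or IL-17 siR-1 library 1, −0.196 to −0.14). Tgfb1 with siR-1 in untreated cells was also lost without a filter and in the fit of the 2 groups alone. Tgfb1 for siR-2 against siR-1 under IL-17 was also lost with RLE size factors, without a filter, by DESeq2 and in the 2 groups alone, Tgfbr2 for siR-1 with IL-17 with RLE size factors and without a filter, and Inhba for siR-1 with TGF-β in a fit of 2 tables alone. Calls were gained for Tgfb2 between the siRNAs in untreated cells (−0.15 without siR-1 library 3), Tgfb1 with siR-1 under IL-17 (−0.101 without Scrambled library 3), Tgfbr3 for siR-1 with IL-17 (0.37 without untreated Scrambled library 3), Tgfb2 and Tgfbr2 for siR-1 with TGF-β (0.22 and −0.13 without TGF-β Scrambled library 2 and 1) and, with counts divided by 6, Tgfbr1 for siR-1 with IL-17 (−0.21) and with siR-1 under TGF-β (−0.16, also with at least 10 counts). Same-numbered libraries did not deviate together: 2 of 27 pairs within a table had a correlation over 0.1 (median −0.0091). With the number as a block, Tgfbr2 for siR-1 with IL-17 (−0.16), Tgfbr1 for siR-2 with IL-17 (−0.24) and Tgfb1 for siR-2 against siR-1 under IL-17 (−0.087) were no longer called, and no other called member was lost. No paired analysis was possible for hearts because the animal numbers in their columns match no label and none is shared by KO and Het. In hearts Inhba and Ltbp2 had the fewest counts of the members, 32 to 83 and 64 to 193 over the Het hearts.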
